A study of Mus musculus with 64 samples.

Results

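Pvt1 (gene ID 19296) and Gt(ROSA)26Sor (gene ID 14910, the Rosa26 transcript) were described in the livers, omental adipose tissues and skeletal muscles of Myc knockout (KO) and wild-type (WT) mice. These are 2 of the 36332 gene IDs in the deposited table, 28726 of which had a read in some library. Both were chosen by their difference between KO and WT mice in every tissue, so that difference is given below as a description without a test. Ageing within a genotype, tissue differences in WT mice and relations within a group did not enter the choice, and these were tested.

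The series holds 64 poly-A RNA-seq libraries in 12 groups, set by genotype (KO or WT), age (5 or 20 months) and tissue. Each group has 5 or 6 libraries, apart from KO muscle at 5 months with 4. KO mice were labelled as a cross of a B6.129 strain with the allele Gt(ROSA)26Sortm1(cre/ERT2)Tyj, which places a CreERT2 gene at Rosa26, and the strain B6.129-B6.129S6-Myctm2Fwa/Mmjax, which has a loxP-flanked Myc allele. WT mice were labelled C57/B6. Both genotypes were labelled as given 5 daily injections of tamoxifen (75 mg per kg) in corn oil at weaning, once they weighed 15 g or more. The labels do not say whether the WT mice carried CreERT2 or were littermates, so Myc loss, the Cre allele and DNA of 129 origin near the modified alleles cannot be told apart in a KO to WT comparison. The library codes of the old mice hold the number 18, while the labels give 20 months, which is used here. The labels do not state that each library came from its own animal, so p-values measure the spread between these libraries.

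CreERT2 is Cre recombinase fused to part of the human oestrogen receptor, and it enters the nucleus when tamoxifen binds. Rosa26 is a gene of broad, steady expression whose own transcripts make no known protein, and transgenes are often placed there because they are then expressed in most tissues. Pvt1 is a long noncoding RNA gene downstream of Myc. In human cancer cells the promoters of both genes have been found to compete for the same enhancers.

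On the GRCm38.p6 assembly, which the submitters' processing notes also name, RefSeq places Myc at chr15:61985341-61990361 and Pvt1 at chr15:62037986-62260215, both on the forward strand and 47.6 kb apart. GENCODE lists 10 Pvt1 transcripts of 2 to 10 exons and 501 to 3319 spliced bases. Gt(ROSA)26Sor lies at chr6:113067428-113077244 on the reverse strand, with 4 transcripts of 2 or 3 exons and 412 to 1181 spliced bases. It stands head to head with Setd5, whose start is 0.018 kb away. At its other end it overlaps the last 851 bases of Thumpd3, which is read from the opposite strand. The library kit marks strand, but whether strand was used in counting is not given in the sources used here, so reads from that overlap cannot be assigned with certainty. The labels place CreERT2 at the Rosa26 locus, whereas Pvt1 itself is not a labelled target: it is the neighbour of the targeted gene.

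Libraries held 15.45 to 28.5 M reads on genes. Values are given in CPM as deposited, but the values of a library summed to 0.529 to 0.753 M for adipose tissue, 1.18 to 1.64 M for liver and 1.077 to 1.32 M for muscle, so comparisons between tissues depend on this scale. Summed defining markers matched the labelled tissue: hepatocyte genes reached at least 103800 in every liver library and skeletal muscle genes at least 126200 in every muscle library, while adipocyte genes reached at least 8850 in every adipose library. Genes on the marker lists of other tissues were also read. Hepatocyte sums were 475 to 4889 in adipose libraries of 5 months and 109 to 1368 in those of 20 months. The WT muscle library W18S42 had a hepatocyte sum of 2670, while its group was otherwise at 8.66 or less. A sum does not show which genes of its list were read. The KO muscle library K5S4285 had B cell and T cell sums of 34.6 and 18.6, against at most 0.761 and 1.65 in the rest of its group. In 12 libraries, all of 5 months, Xist was present without Y-chromosome transcripts. Epididymis transcripts (8 genes, summed) reached 918 to 6086 in 4 adipose libraries of 5 months, 3 of them KO, and 126 in 1 WT muscle library of 5 months. In bulk tissue, fewer cells of a type and less RNA per cell cannot be told apart.

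Pvt1 was higher in KO than in WT tissue, with the largest ratio in adipose tissue of 5 months. At 5 months the 6 KO adipose libraries had 6.21, 7.46, 8.49, 14.6, 14.7 and 18.3 CPM, from 195 to 452 reads. The 6 WT libraries had 1.71, 1.72, 1.74, 1.86, 2.29 and 3.42 CPM, from 43 to 83 reads. Every KO library was above every WT library. Of 14286 genes tested in this comparison, a model over all genes (limma, Benjamini-Hochberg adjusted p under 0.05) called 0.105%, and 0.098% had all KO libraries above all WT libraries. The means were 11.6 ± 4.88 against 2.12 ± 0.67 CPM (SD, n = 6 and 6), a ratio of 5.48, and the log2 fold change was 1.95 (SE 0.22) on the scale of log2(CPM + 1), which understates the change of low genes.

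The 3 KO adipose libraries of 5 months with the lowest Pvt1 (6.21, 7.46 and 8.49 CPM) were the 3 with epididymis transcripts, whose summed levels there were 956, 3947 and 6086 in that order. The same 3 had macrophage marker sums (5 genes) of 635, 1056 and 1226, whereas the 3 others had 1837 to 1879. The WT libraries of that age had macrophage sums of 803 to 1221. Without the 4 libraries that held epididymis transcripts, the log2 fold change of Pvt1 was 2.42. The part of these other cells in the level of Pvt1 was not tested.

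At 20 months the KO adipose libraries had Pvt1 at 4.36, 4.94, 5.39, 7.90 and 8.72 CPM. The WT libraries had 2.22, 2.32, 2.42, 3.07 and 3.14 CPM. The groups again did not overlap, with means of 6.26 ± 1.93 and 2.64 ± 0.43 CPM (SD, n = 5 and 5) and a log2 fold change of 0.97 (SE 0.24). Limma called 0% of genes here, the unadjusted p of 321 genes was under 0.05, edgeR called 0 and DESeq2 called 10, while 0.644% had all KO libraries above. Epididymis marker sums were 0.492 or less in all of these libraries, and macrophage marker sums were 1204 to 2838 in KO and 837 to 1827 in WT adipose tissue. Their part in the level was not tested.

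In liver the means of Pvt1 were lower than in adipose tissue in both genotypes, and the separation was again complete at both ages. All KO libraries were above all WT libraries for 0.139% (5 months) and 1.455% (20 months) of 12924 genes. Limma called 0.0696% (5 months) and 0.0232% (20 months) of them. At 5 months KO livers had 2.67, 3.69, 4.25, 5.73, 6.04 and 8.01 CPM. WT livers had 0.657, 0.706, 0.954, 1.18, 1.45 and 2.17 CPM, from 8 to 26 reads. Counting error alone is wide at that depth: the 8 reads behind 0.706 CPM have an exact Poisson 95% interval of 0.305 to 1.39 CPM. The means were 5.07 ± 1.92 and 1.19 ± 0.56 CPM (SD, n = 6 and 6), with a log2 fold change of 1.45 (SE 0.21). At 20 months KO livers had 2.33, 2.51, 2.96, 4.93 and 5.17 CPM. WT livers of that age had 1.05, 1.11, 1.17, 1.43 and 1.73 CPM. The log2 fold change between them was 0.95 (SE 0.23), and the lowest KO library stood above the highest WT library.

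Muscle was the tissue in which the genotypes overlapped. At 5 months KO muscles had Pvt1 at 3.93, 4.19, 4.72 and 5.76 CPM. WT muscles had 1.67, 2.47, 2.62, 2.79, 3.87 and 4.51 CPM. Only 2 of the 4 KO libraries exceeded all WT libraries, and the log2 fold change was 0.53 (SE 0.19). Limma called 0% of 13237 genes in this comparison (543 had an unadjusted p under 0.05, edgeR called 0 and DESeq2 5). At 20 months KO muscles had 3.73, 4.06, 4.24, 4.31 and 5.33 CPM, and WT muscles had 1.76, 2.15, 2.90, 3.15 and 4.06 CPM. The lowest of these WT values belonged to W18S42, the library with hepatocyte transcripts. At that age 4 of 5 KO libraries were above all WT libraries, with a log2 fold change of 0.51 (SE 0.19), in a comparison where limma called 0.0302% of genes. Without W18S42 the log2 fold change at 20 months was 0.41, and without K5S4285 that at 5 months was 0.52.

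**Figure D1:**
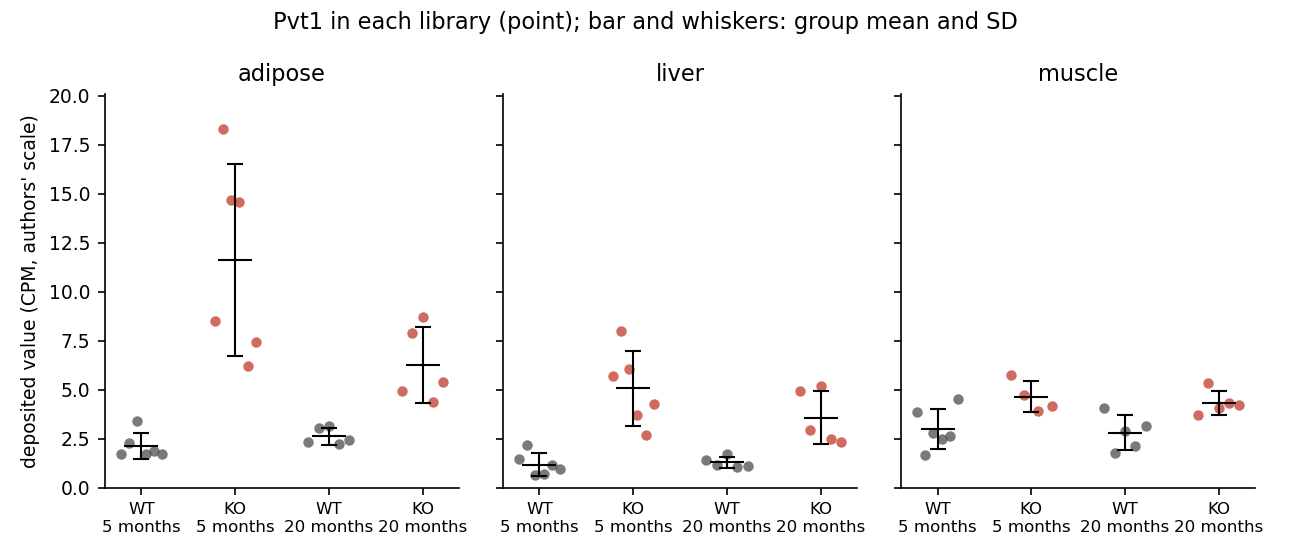
Pvt1 in each of the 64 libraries, with the deposited CPM on the vertical axis and 1 panel per tissue; grey points are WT, red points KO, and the black bar with whiskers is the group mean and SD. KO and WT points do not overlap in adipose tissue and liver at either age, and they overlap in muscle, where 2 of 4 KO libraries at 5 months and 4 of 5 at 20 months lie above all WT libraries.

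Gt(ROSA)26Sor was lower in KO than in WT tissue. In adipose tissue at 5 months the KO libraries had 2.47, 2.72, 2.92, 3.15, 4.53 and 6.45 CPM, and the WT libraries had 6.04, 7.03, 7.12, 7.37, 7.74 and 7.91 CPM. A single KO library, at 6.45 CPM, lay above the lowest WT library. The means were 3.71 ± 1.53 and 7.20 ± 0.66 CPM (SD, n = 6 and 6), with a log2 fold change of -0.85 (SE 0.18). At 20 months KO adipose tissues had 2.52, 2.77, 3.02, 4.08 and 5.81 CPM and WT adipose tissues had 7.31, 7.37, 7.53, 7.60 and 8.19 CPM. The groups did not overlap, and the log2 fold change was -0.93 (SE 0.19). Of the genes tested there, 0.644% had all KO libraries below all WT libraries. The WT libraries of 20 months spanned less than 1 CPM, while the KO libraries varied by more than 2-fold. Without the epididymis libraries the log2 fold change at 5 months was -0.65, and without the Xist libraries it was -0.92. The KO library at 6.45 CPM held Xist and had the highest adipocyte sum of its group, 31388. At 20 months the KO library at 5.81 CPM also had the highest sum of its group, 17938. WT adipocyte sums were 15610 to 32450 at 5 months and 9623 to 15410 at 20 months. The part of adipocytes in these levels was not tested.

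In liver the lower level of Gt(ROSA)26Sor in KO mice was seen in every library at both ages. All KO libraries were below all WT libraries for 0.0619% (5 months) and 1.006% (20 months) of tested genes. KO livers of 5 months had 1.41, 1.64, 1.73, 1.82, 2.27 and 3.08 CPM. WT livers of 5 months had 3.40, 5.27, 5.84, 6.33, 8.73 and 8.75 CPM. The log2 fold change was -1.27 (SE 0.18), from means of 1.99 ± 0.60 and 6.39 ± 2.08 CPM (SD, n = 6 and 6). KO livers of 20 months had 3.78, 4.20, 4.52, 5.17 and 6.85 CPM. WT livers of 20 months had 9.24, 9.83, 10.99, 12.2 and 12.4 CPM, and the log2 fold change was -1.03 (SE 0.20). The KO livers of 20 months lay within the range of the WT livers of 5 months.

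In muscle at 5 months the KO libraries had Gt(ROSA)26Sor at 1.59, 1.80, 2.35 and 2.42 CPM, and the WT libraries had 1.17, 2.84, 3.58, 4.84, 5.01 and 5.76 CPM. The lowest value belonged to a WT library (W5S5277), below all KO libraries, and the other 5 WT libraries were above all KO libraries. That library had 17 reads of Gt(ROSA)26Sor, with an exact Poisson 95% interval of 0.684 to 1.88 CPM, and it also had the lowest Myc of its group at 6.15 CPM. The log2 fold change was -0.60 (SE 0.26). At 20 months KO muscles had 0.873, 1.02, 1.34, 1.99 and 2.75 CPM, and WT muscles had 3.11, 3.603, 4.65, 5.11 and 5.39 CPM (the highest in W18S42), with no overlap and a log2 fold change of -1.08 (SE 0.26). Without W18S42 it was -1.01, and without K5S4285 that of 5 months was -0.56. At 20 months 1.715% of tested genes had all KO muscle libraries below all WT muscle libraries.

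**Figure D2:**
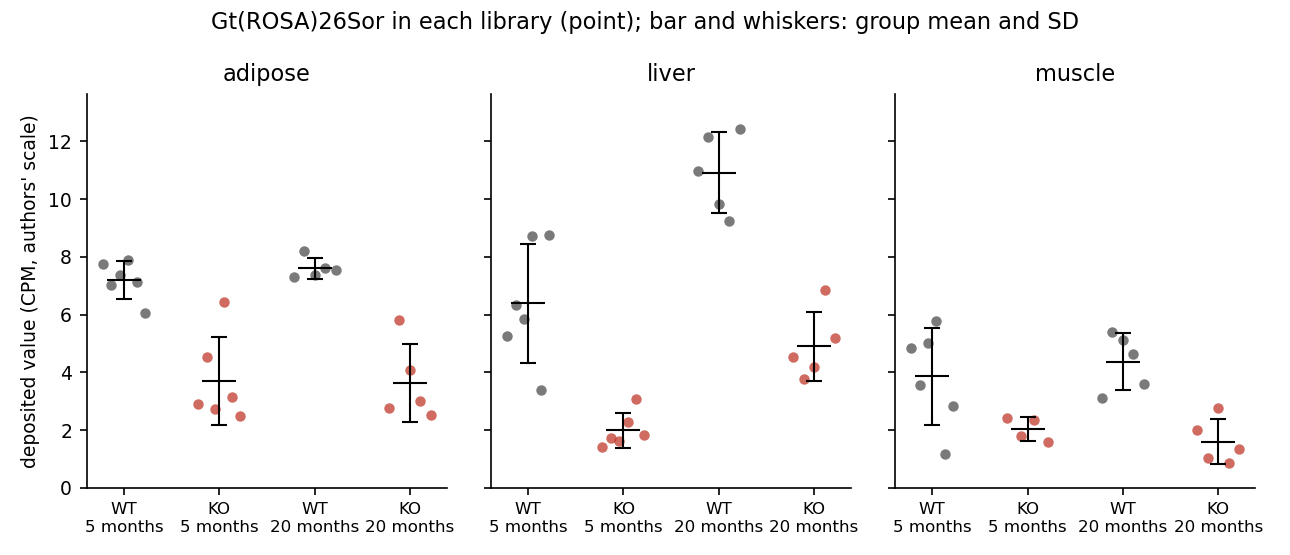
Gt(ROSA)26Sor in each library, with the deposited CPM on the vertical axis and 1 panel per tissue; grey points are WT, red points KO, and the black bar with whiskers is the group mean and SD. KO points lie below WT points except for 1 KO adipose library at 6.45 CPM and 1 WT muscle library at 1.17 CPM, both of 5 months, and liver libraries of 20 months are higher than those of 5 months in both genotypes.

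Over the 6 comparisons, genes whose KO libraries all exceeded all WT libraries made up 0.098% to 1.46% of tested genes, and genes with all KO libraries below made up 0.0619% to 1.72%. Pvt1 was in the first set in 4 of the 6 comparisons and Gt(ROSA)26Sor in the second set in 4. Of 11330 genes tested in every tissue, 1 was above without overlap in 4 or more comparisons (Pvt1) and 1 was below (Gt(ROSA)26Sor). Since the pair was selected on this contrast, these counts describe the choice and nothing is read from them.

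Ordered by group mean on the deposited scale, all 6 KO groups came before all 6 WT groups for Pvt1. The means ran from 11.6 CPM in KO adipose tissue of 5 months to 1.19 CPM in WT liver of 5 months. No neighbouring pair in that order was separated without overlap of its libraries, so the order of adjacent groups is within their spread. On library totals the KO groups no longer all came before the WT groups. There WT adipose tissues of 20 months had Pvt1 at 3.45, 3.52, 3.66, 4.88 and 5.09 reads per M reads. KO livers of 20 months had 1.96, 2.09, 2.29, 3.90 and 4.02 on that scale. For Gt(ROSA)26Sor the highest group on the deposited scale was WT liver of 20 months at 10.9 ± 1.40 CPM (SD, n = 5). It was clear of the next, WT adipose tissue of 20 months at 7.60 ± 0.35 CPM (SD, n = 5). On library totals the order of these 2 groups was reversed without overlap. The livers then had 6.74 to 10.04 and the adipose tissues 11.07 to 13.57 reads per M reads. The lowest group on the deposited scale was KO muscle of 20 months at 1.59 ± 0.78 CPM (SD, n = 5). Among the rest, 1 further step was free of overlap, between KO adipose tissue of 20 months (lowest library 2.52 CPM) and KO muscle of 5 months (highest library 2.42 CPM).

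With age, Gt(ROSA)26Sor rose in liver in both genotypes. In WT livers it went from 6.39 ± 2.08 CPM (SD, n = 6) to 10.9 ± 1.40 CPM (SD, n = 5), and all 5 old libraries were above all 6 young ones, whose highest was 8.75 CPM. The log2 fold change was 0.73 (SE 0.19, limma adjusted p = 0.0210). In KO livers it went from 1.99 ± 0.60 to 4.90 ± 1.202 CPM, again with all 5 old libraries above all 6 young ones, and the log2 fold change was 0.98 (SE 0.19, limma adjusted p = 0.00655). By the same limma rule, ageing moved 7.19% of tested genes in WT livers and 2.99% in KO livers. The share of all genes whose old and young libraries did not overlap was not counted, so nothing is read from that separation. The WT call was lost when library W18L02 or W18L05 was left out (log2 fold changes 0.70 and 0.69, limma adjusted p = 0.0579 and 0.0600), and the KO call held without any single library, with limma adjusted p from 0.00234 to 0.0293. On library totals the WT and KO log2 fold changes were 0.88 and 1.04, while the median of all genes moved from -0.01 to 0.17 and from -0.02 to 0.15. Without the 4 liver libraries that held Xist, the log2 fold changes were 0.83 (limma adjusted p = 0.0371) in WT and 0.98 (limma adjusted p = 0.0153) in KO livers. Macrophage marker sums were 173 to 324 in young and 123 to 179 in old KO livers, with medians of 209 and 120 in WT livers, and endothelium sums (4 genes) had medians of 92.2 and 62.7 in KO and 82.1 and 67.8 in WT livers. Their part in the rise was not tested. Thumpd3, the overlapping gene on the other strand, had log2 fold changes of -0.05 (SE 0.14) in WT and -0.04 (SE 0.14) in KO livers, and Setd5 had 0.18 and 0.12 (SE 0.16 for both), none of which passed the test.

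No ageing change of Gt(ROSA)26Sor passed the test in the other tissues. In adipose tissue, where 10.8% of genes were called in WT and 14.2% in KO mice, the log2 fold changes were 0.07 (SE 0.18) in WT and -0.01 (SE 0.18) in KO. In muscle, where 18.6% were called in WT and 5.57% in KO mice, they were 0.21 (SE 0.25) and -0.27 (SE 0.27), with 3 of 5 old KO libraries below all young ones.

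Pvt1 fell with age in KO adipose tissue, from 11.6 ± 4.88 CPM (SD, n = 6) to 6.26 ± 1.93 CPM (SD, n = 5). In this comparison limma called 14.2% of 14286 tested genes, 1497 of them higher and 536 lower with age. For Pvt1 the log2 fold change was -0.74 (SE 0.23, limma adjusted p = 0.0384), and 3 of the 5 old libraries were below all young ones. This call depended on single libraries: it was lost in 6 of the 22 fits that left out 1 library, namely K18F26, K18F29, K18F30, K5F4285, K5F5116 or K5F5118, with limma adjusted p up to 0.108. It was also lost without the libraries that held Xist, at -0.54 (limma adjusted p = 0.112). Without the libraries that held epididymis transcripts, all of them young, the change was -1.25 (limma adjusted p = 0.00307). Macrophage marker sums ran from 635 to 1879 in young and from 1204 to 2838 in old KO adipose tissue. Sums of B cell markers (4 genes) were 4.04 to 6.45 in young and 10.1 to 35.7 in old libraries, without overlap. Hepatocyte sums were 1243 to 3838 in young and 109 to 1368 in old libraries, and pancreas sums (6 genes) were 6.69 to 19.3 and 14.9 to 41.4. Their part in the fall was not tested.

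No other ageing change of Pvt1 passed. The log2 fold changes were 0.24 (SE 0.23) in WT adipose tissue, 0.10 (SE 0.22) in WT liver, -0.39 (SE 0.22) in KO liver, -0.06 (SE 0.18) in WT muscle and -0.08 (SE 0.20) in KO muscle. The direction of the WT liver value changed without the Xist libraries (-0.07), and that of the KO muscle value changed when values were scaled to library totals (0.04).

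**Figure D3:**
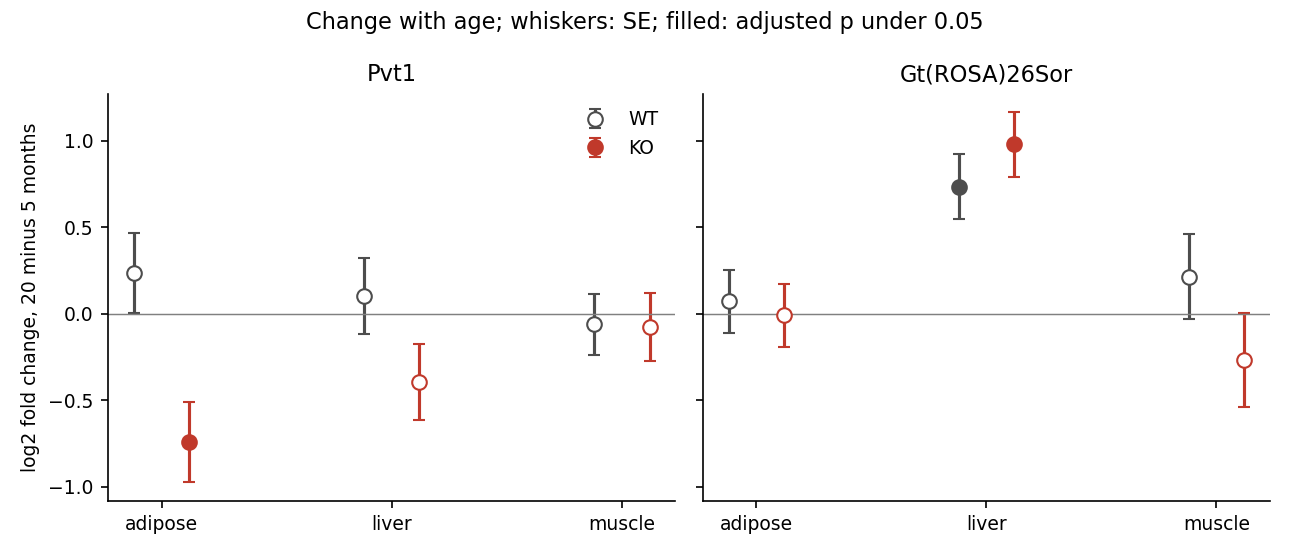
Change between 5 and 20 months for each gene, tissue and genotype, as the log2 fold change on the vertical axis with its SE; grey is WT, red is KO, and filled points passed the test (limma adjusted p under 0.05). Gt(ROSA)26Sor in liver lies at 0.73 in WT and 0.98 in KO mice, and Pvt1 in KO adipose tissue lies at -0.74, while the other points do not pass.

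The interaction of genotype and age gives the KO difference at 20 months minus that at 5 months. It too is built from the values the pair was chosen by, so no test is read from it for either gene. For no gene did it pass with limma: 0% were called for adipose tissue (407 genes had an unadjusted p under 0.05), 0% for liver (507 genes) and 0% for muscle (438 genes). EdgeR called 0 in each, and DESeq2 called 6, 0 and 1. For Pvt1 it was -0.98 (SE 0.33) in adipose tissue, -0.50 (SE 0.31) in the livers and -0.02 (SE 0.27) for muscle. For Gt(ROSA)26Sor it was -0.08 (SE 0.26), 0.25 (SE 0.26) and -0.48 (SE 0.37). Whether the rise of Gt(ROSA)26Sor in liver or the adipose change of Pvt1 differs between genotypes is left undecided here.

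Tissues were compared among the WT libraries of 5 months, where most genes differ: limma called 68.1% of 15676 genes between adipose tissue and liver, 66.5% between adipose tissue and muscle and 69.6% between liver and muscle. Pvt1 was lower in liver than in muscle, at 1.19 ± 0.56 against 2.99 ± 1.03 CPM (SD, n = 6 and 6), a log2 fold change of -0.87 (SE 0.23, limma adjusted p = 0.00140). Adipose tissue was above liver by 0.53 on the log2 scale (SE 0.23, limma adjusted p = 0.0446), but that call was lost without a filter on low genes (limma adjusted p = 0.0751), without the Xist libraries (0.27, limma adjusted p = 0.465) and in 7 of 34 fits that left out 1 library (W5F5006, W5F5041, W5F5277, W5L5041, W5L5042, W5L5277 or W5L5299). Adipose tissue and muscle did not pass the test at -0.34 (SE 0.23), and on library totals the difference had the other sign, 0.28.

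Gt(ROSA)26Sor in WT mice of 5 months was higher in adipose tissue than in muscle by 0.84 on the log2 scale (SE 0.22, limma adjusted p = 0.00137). It was higher in liver than in muscle by 0.64 (SE 0.22, limma adjusted p = 0.0115), a call lost without the WT muscle library W5S5277 (0.43, limma adjusted p = 0.0590) and on library totals (0.40, limma adjusted p = 0.0845). Between adipose tissue and liver the difference was 0.20 (SE 0.22) on the deposited scale and did not pass, whereas on library totals it was 1.18 (limma adjusted p = 3.66e-06). Library totals moved the median of all genes from 0.08 to 0.94 for adipose tissue minus liver, from 0.18 to 0.82 for adipose tissue minus muscle and from -0.03 to -0.16 for liver minus muscle, and differences on that scale are to be read against these shifts.

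The size of the KO difference is given side by side for the tissues at 5 months. It is built from the KO and WT values that the pair was chosen by, so no test is read from it for either gene. The KO difference of Pvt1 in adipose tissue minus that in muscle was 1.41 (SE 0.35) on the log2 scale, that in adipose tissue minus that in liver was 0.50 (SE 0.33), and that in liver minus that in muscle was 0.92 (SE 0.35). For Gt(ROSA)26Sor the 3 values were -0.25 (SE 0.34), 0.42 (SE 0.32) and -0.68 (SE 0.34) in that order. Over all genes, limma called 0% for adipose tissue minus muscle, 0% for adipose tissue minus liver and 0% for liver minus muscle, in which an unadjusted p under 0.05 was reached by 757, 942 and 189 genes. EdgeR called 0 in each, and DESeq2 called 24, 8 and 20.

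Myc, the transcription factor gene that was targeted and the nearest tested neighbour of Pvt1, had reads in every library. In KO livers of 5 months it had 1.16, 1.76, 2.26, 3.05, 3.27 and 4.04 CPM, against 5.46, 10.4, 20.1, 22.3, 25.6 and 33.7 CPM in WT livers, and all KO libraries were below all WT libraries. The log2 fold change was -2.38 (SE 0.30, limma adjusted p = 0.00093), and without the Xist libraries it was -2.20 (limma adjusted p = 0.0733). In adipose tissue of 5 months it was -1.52 (SE 0.25, limma adjusted p = 0.0170), which was lost without the epididymis libraries (-1.10, limma adjusted p = 0.134) and without W5F5006 (limma adjusted p = 0.0530). In the other 4 comparisons it did not pass, with -0.63 in adipose tissue and -1.16 in liver at 20 months, and -1.13 and -0.49 in muscle at 5 and 20 months. Every KO library held reads counted for Myc, the fewest being 17. Reads of the recombined allele could not be told apart from reads of an intact Myc, here and in the relations and ratios below.

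Pvt1 and reads counted for Myc were correlated in KO livers of 5 months. The 6 libraries had the same order of levels for both genes except for 1 exchanged pair (5.73 and 6.04 CPM of Pvt1 at 3.27 and 3.05 CPM of Myc). Over log2 values, Pearson's r was 0.989 (exact permutation p = 0.00278, adjusted p = 0.0333 over 12 relations tested) and Spearman's rho was 0.943 (exact permutation p = 0.0167, adjusted p = 0.1). Leaving out the 2 libraries farthest from the median of Myc gave r = 0.974. The group held 2 libraries with Xist and 4 without, too few for a value within each. Of 12922 other tested genes, 5 (0.0387%) had a higher r with Pvt1 in these libraries, where the median r was 0.03.

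In KO adipose tissue of 5 months r was 0.825 (exact permutation p = 0.0653, adjusted p = 0.261) and rho was 0.943 (adjusted p = 0.1), and r was 0.531 without the 2 farthest libraries. There 769 of 14285 genes had a higher r with Pvt1. In WT libraries of 5 months no relation of Pvt1 with Myc passed: r was 0.385 for adipose tissue, -0.407 for liver and 0.030 for muscle, with exact permutation p = 0.536, 0.426 and 0.965 and 6 libraries in each. Correlations were computed only for groups of 6 libraries, and those of 4 or 5 were left out by rule. The difference between the KO and the WT relation was not tested.

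The number of Pvt1 reads per Myc read sets these side by side, with no scale per library involved. Pvt1 was chosen by its KO to WT difference and Myc is the targeted gene. A higher ratio in KO than in WT tissue therefore follows from the choice, and nothing is read from that contrast of the ratio. In KO livers of 5 months it was 1.998 ± 0.19 (SD, n = 6), within 1.75 to 2.29. In KO adipose tissue of 5 months it was 2.14 ± 0.66 (SD, n = 6), and in KO muscle 0.556 ± 0.289 (SD, n = 4). In WT tissues of 5 months the ratio was 0.126 ± 0.037 for adipose tissue, 0.0956 ± 0.0909 for liver and 0.181 ± 0.141 for muscle (SD, n = 6 each). At 20 months the ratio was 0.887 ± 0.323 in KO adipose tissue, 1.75 ± 0.52 in KO liver and 1.14 ± 0.87 in KO muscle, against 0.230, 0.224 and 0.364 in the WT tissues (n = 5 each). In KO adipose tissue all 5 old libraries, at up to 1.25, lay below all 6 young ones, at 1.48 or more. In WT livers Myc fell with age by 1.40 on the log2 scale (SE 0.32, limma adjusted p = 0.0108), while Pvt1 differed by 0.10. Without the Xist libraries the change of Myc was -1.25 and did not pass (limma adjusted p = 0.0760).

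**Figure D4:**
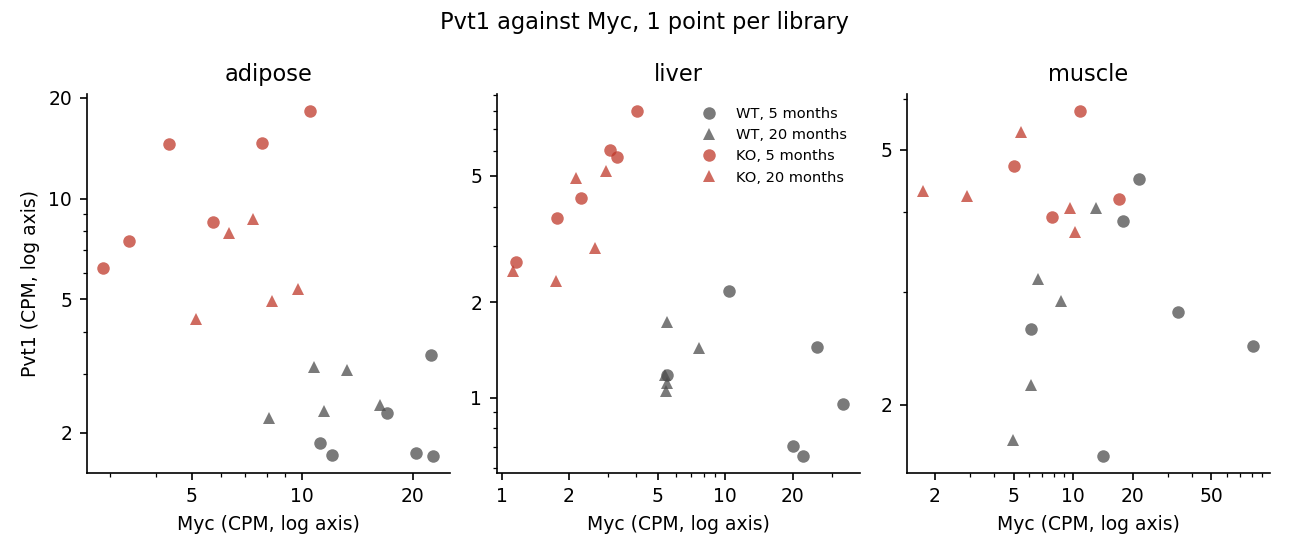
Pvt1 against Myc, both in deposited CPM on log axes, with 1 panel per tissue and 1 point per library; red is KO, grey is WT, circles are 5 months and triangles 20 months. In liver the 6 KO circles form a rising line from 1.16 CPM of Myc and 2.67 CPM of Pvt1 to 4.04 and 8.01 CPM, and the WT points lie to the right and below with no such line.

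No relation of Gt(ROSA)26Sor with Pvt1 within a group passed after adjustment. In KO livers of 5 months r was -0.831 (exact permutation p = 0.0361, adjusted p = 0.217), and it was -0.149 without the 2 farthest libraries, so that relation rested on them. In KO adipose tissue r was 0.590 (exact permutation p = 0.254). In the WT groups it was 0.076 (adipose tissue), -0.285 (liver) and -0.011 (muscle), and none passed. KO adipose and liver libraries of 5 months that share a number in their codes were compared for each gene: r was 0.681 for Pvt1 (exact permutation p = 0.138, adjusted p = 0.412) and 0.259 for Gt(ROSA)26Sor (exact permutation p = 0.617), over 6 pairs of libraries.

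No gene near either locus passed the test between KO and WT mice when all libraries were used, other than Myc. Since limma called 0 to 0.105% of all genes in these comparisons, a count of 0 among this few neighbours is what the background gives. Within 2 Mb of Pvt1, 45 genes are annotated besides Pvt1 and Myc, and 23 of them are in the table. Of these, 5 could be tested in adipose tissue and 4 in each other tissue. Limma, edgeR and DESeq2 called 0 in all 6 comparisons, and 2 had an unadjusted p under 0.05, both in liver at 5 months, where 897 of 12924 genes did. On the Myc side, the nearest of them was Gm38563 in adipose tissue (871 kb away, log2 fold changes 0.33 and -0.32 at 5 and 20 months), and in liver and muscle it was 9930014A18Rik (1207 kb, -0.09 to 0.46). On the other side it was Cyrib (1669 kb, -0.19 to 0.22 over the 6 comparisons), which encodes a regulator of Rac1. The 2 genes with an unadjusted p under 0.05 were Lratd2 and Asap1. Lratd2 had 40.3 ± 6.46 CPM in KO against 24.7 ± 11.2 CPM in WT livers of 5 months (log2 fold change 0.81, SE 0.29, limma adjusted p = 0.517). Asap1, which encodes an Arf GTPase-activating protein, had 37.9 ± 9.67 against 26.0 ± 4.45 CPM there (0.50, SE 0.17, limma adjusted p = 0.477), with 5 of 6 KO libraries above all WT libraries.

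Around Gt(ROSA)26Sor, 76 genes are annotated within 2 Mb, 57 are in the table, and 25 to 33 could be tested. Limma, edgeR and DESeq2 called 0 in all 6 comparisons, and 0 to 2 per comparison had an unadjusted p under 0.05. Over all genes, 321 of 14286 (adipose tissue of 20 months) to 1821 of 13237 (muscle of 20 months) did. Setd5, which encodes a SET domain protein and starts next to the Rosa26 promoter, had log2 fold changes from -0.26 to 0.06. In adipose tissue of 20 months its 5 KO libraries were all below the 5 WT libraries, as for 0.644% of genes, at 73.2 ± 8.497 against 87.5 ± 4.69 CPM (SE of the log2 fold change 0.22, limma adjusted p = 1). Thumpd3, which encodes a THUMP domain protein, ranged from -0.18 to 0.13 and did not pass in any comparison. Without the adipose libraries that held Xist, 2 genes of this window were called at 5 months, in a fit that called 534 genes over all, against 15 with all libraries. These were Creld1, 406 kb away (-0.85, limma adjusted p = 0.0202, against -0.66 and 0.241 with all libraries), and Il17rc, 394 kb away (-0.75, limma adjusted p = 0.0490, against -0.21 and 0.824). Creld1 was also called when only K5F5118 was left out (limma adjusted p = 0.0391).

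**Figure D5:**
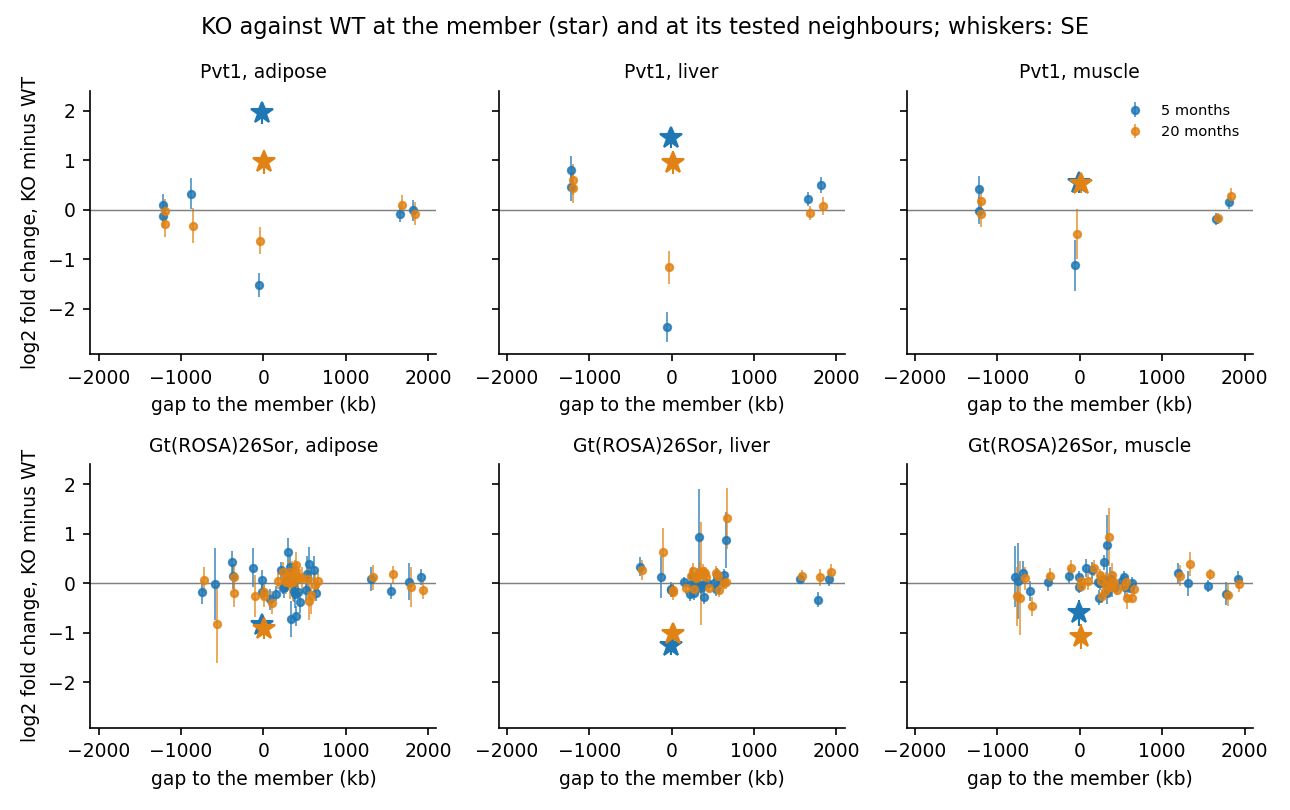
Log2 fold change of KO against WT (vertical axis, whiskers SE) for Pvt1 (upper panels) and Gt(ROSA)26Sor (lower panels), drawn as stars, and for the tested genes within 2 Mb of each, placed by their gap in kb to the gene (horizontal axis); blue is 5 months and orange 20 months. The point just left of Pvt1 is Myc, at -2.38 in liver of 5 months, and no other neighbour passed the test.

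Esr1 is the mouse gene for the oestrogen receptor, the counterpart of the human receptor part of CreERT2. Its mean was higher in KO than in WT mice in all 6 comparisons, as it was for 547 of 11330 genes tested in every tissue, and limma called none of the 6. The largest separation was in liver of 20 months, with 33.7, 34.4, 47.0, 53.0 and 61.3 CPM in KO against 17.6, 28.2, 28.9, 30.3 and 33.5 CPM in WT livers. All 5 KO libraries were above all WT libraries, as for 1.455% of tested genes, and the log2 fold change was 0.70 (SE 0.23, limma adjusted p = 0.747). In muscle the difference was 0.23 (SE 0.25) at 5 months and 0.13 (SE 0.24) at 20 months. Whether reads of the fusion gene were counted for Esr1 was not tested.

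To name genes of a like pattern, log2(CPM + 1) minus the mean of the library's tissue and age was correlated over the 64 libraries among 11329 other genes tested in every tissue. This measure holds the KO to WT contrast that the pair was chosen by, and all genes share the same libraries and scale, so it is a description. The 5 genes most like Pvt1 were Dynlt1b (r = 0.674, a dynein light chain), H2-Q4 (0.647) and H2-Q7 (0.612), both MHC class I genes, Washc2 (0.624, a subunit of the WASH complex on endosomes) and Srgn (0.604, the proteoglycan serglycin of haematopoietic cells). Reads of the H2-Q genes are uncertain, because near-identical copies share them. The genes most opposite to Pvt1 were Dkc1 (-0.733, the pseudouridine synthase dyskerin), Gt(ROSA)26Sor (-0.686) and Xrcc6 (-0.662, the Ku70 subunit of DNA end joining).

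Gt(ROSA)26Sor was most like Myc itself (r = 0.719), followed by Rpl12 (0.645, a ribosomal protein), Tufm (0.624, the mitochondrial translation elongation factor), Bid (0.623, a pro-apoptotic Bcl2 family protein) and Dkc1 (0.620). The most opposite were Washc2 (-0.742), Pvt1 (-0.686) and H2-Q6 (-0.681). Of these, Bid and Washc2 lie on chromosome 6 like Gt(ROSA)26Sor, 7.83 and 3.14 Mb away. Of the genes named for Pvt1, Xrcc6 lies on chromosome 15 like Pvt1, 19.95 Mb away. In liver Bid had 8.28 ± 2.48 CPM in KO and 17.1 ± 2.54 CPM in WT mice at 5 months, and 7.32 ± 1.45 and 25.4 ± 4.63 CPM at 20 months, with no overlap at either age. Washc2 had 96.2 ± 11.3 CPM in KO and 66.9 ± 6.03 CPM in WT livers of 20 months, also without overlap. Dkc1 in adipose tissue had 9.99 ± 1.71 CPM in KO and 16.1 ± 1.63 CPM in WT mice of 5 months, and all 6 KO libraries were below all WT libraries. The last held for 0.203% of genes tested there. In liver, 0.0619% (5 months) and 1.006% (20 months) of genes had all KO libraries below, and 1.455% (20 months) had all above.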

How the data were processed

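Poly-A RNA of omental adipose tissue, liver and skeletal muscle was sequenced from KO and WT mice (64 libraries). The deposited table gives a normalised signal per gene and library, labelled CPM by the authors; the aligner and the scaling method are not given in the sources used here, and the submitters' processing notes name GRCm38.p6 and mm10. Low values were whole multiples of what 1 read is worth in their library (100% of them, tolerance 0.1 read). Higher values were not checked in this way. Reads were recovered by rounding, 15.45 to 28.5 M per library. The table has 36333 entries, 1 ID of them in 2 entries, and 35336 IDs were matched to a symbol.

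The main test was limma 3.58.1 (R 4.3.3) on log2(deposited value + 1), with 1 mean per group and variances moderated towards a trend in the mean level. P-values were adjusted by Benjamini and Hochberg over all genes above 1 CPM in as many libraries as the smallest group. Each tissue was fitted on its 4 groups, and tissues were compared in a fit of the 34 libraries of 5 months. The code was tested on simulated data. Alternatives were a pseudocount of 0.1, no filter, scaling to library totals, edgeR 4.0.16 and DESeq2 1.42.0 on the recovered reads, leaving out each library, and leaving out libraries with Xist or epididymis transcripts. Numbers shared between tissues paired the WT libraries of liver and muscle, where the deviations of all 5 pairs correlated above 0.1 (0.116 to 0.253) and each library correlated best with its own number. For the other tissue pairs, 2 of 6 (KO adipose tissue and liver) to 3 of 4 libraries correlated best with their own number. In each tissue the 4 libraries with Xist and no Y-chromosome transcripts had the same numbers. The labels do not say what a number stands for. Correlations used exact permutation tests, two-sided. Intervals on reads cover counting error only.

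Pvt1, Gt(ROSA)26Sor, the gene lists and the tests were chosen with earlier results of these data known. Other genes were named by rule: Myc, Esr1, the genes within 2 Mb that were called with all libraries (none but Myc), the nearest tested neighbours, and the 5 most and 3 least correlated genes. Lratd2, Asap1, Creld1, Il17rc and the values of Bid, Washc2 and Dkc1 were chosen after their values were seen. The reference promoter table was not used for these genes, and no sequence is printed.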

Additional observations from a re-analysis of the deposited data

Results flagged for a closer look

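Pvt1, Gt(ROSA)26Sor, Myc and Esr1 were each examined in the 12 groups for a library far from the others, judged by whether its gap to the next library over the range of the group was above Dixon's 95% critical value for the size of the group. This was so in 5 of 48 cases. A 95% value marks about 1 in 20 groups by chance, and the 48 cases share libraries. Among WT adipose libraries of 5 months, W5F5041 had Pvt1 at 3.419 CPM, a gap of 0.663 of the range. That library was one of those with Xist, and without it the WT difference of Pvt1 between adipose tissue and liver was 0.42 on the log2 scale. No group of Gt(ROSA)26Sor had such a library. Myc was high at 7.609 CPM in the WT liver library W18L01 of 20 months (0.951 of the range) and at 81.31 CPM in the WT muscle library W5S5042 of 5 months (0.633). Esr1 was high at 79.34 CPM in the KO adipose library K5F5218 of 5 months (0.781), which also held epididymis transcripts. It was high at 30.66 CPM in the WT muscle library W5S5277 (0.737), the library with the lowest Gt(ROSA)26Sor and the lowest Myc of its group.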

How the results depend on the processing

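On the log2 scale, the KO difference of Pvt1 at 5 months in adipose tissue was 2.50 with edgeR, 2.50 with DESeq2 and 2.42 without the epididymis libraries, and in liver it was 2.03 with a pseudocount of 0.1, 2.07 with edgeR and 2.07 with DESeq2. In liver at 20 months it was 1.34, 1.44 and 1.45 under the same settings. That of Gt(ROSA)26Sor in liver at 5 months was -1.61, -1.69 and -1.69. The pseudocount of 1 shrinks the changes of low genes by construction.

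Other results moved as follows, and the cause was not tested. No test is read from the interactions and the differences between KO effects among them. The fall of Pvt1 with age in KO adipose tissue was -0.74 without a filter (adjusted p = 0.0738) and -0.54 without the Xist libraries, the WT difference of Pvt1 between adipose tissue and liver was 0.53 and 0.27 under the same settings, and the Pvt1 difference between the KO effects of adipose tissue and muscle, given without a test, was 1.85 with DESeq2. Scaling to library totals gave 0.28 for Pvt1 between WT adipose tissue and muscle, 1.19 and 0.40 for Gt(ROSA)26Sor between WT adipose tissue and liver and between liver and muscle, 0.0368 for Pvt1 ageing in KO muscle and 0.0459 for its interaction there, which edgeR and DESeq2 put at 0.0302 and 0.0327. DESeq2 gave 0.00674 for the difference of the Gt(ROSA)26Sor KO effects between adipose tissue and muscle. Without the Xist libraries, Pvt1 ageing in WT liver was -0.0686, Gt(ROSA)26Sor ageing in KO adipose tissue 0.10, Myc in liver at 5 months -2.20, its ageing in WT liver -1.25 (adjusted p = 0.0760), and 2 genes near Gt(ROSA)26Sor were called in adipose tissue at 5 months, among 534 called over all genes. Myc in adipose tissue at 5 months was -1.10 without the epididymis libraries. On library totals (added after the data were seen), r of Pvt1 with Gt(ROSA)26Sor in WT adipose tissue was -0.558, and r of Pvt1 with Myc in WT muscle was -0.0818.

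Leaving out 1 library gave -0.89 to -0.60 for Pvt1 ageing in KO adipose tissue, -0.172 to 0.0467 in WT muscle and -0.142 to 0.0109 in KO muscle, and -0.126 to 0.0934 for its muscle interaction. Pvt1 between WT adipose tissue and liver ranged from 0.42 to 0.64. For Gt(ROSA)26Sor it gave -0.16 to 0.13 for ageing in KO adipose tissue, -0.231 to 0.0619 for its adipose interaction, 0.60 to 0.83 for ageing in WT liver and 0.43 to 0.78 between WT liver and muscle. Myc in adipose tissue at 5 months ranged from -1.70 to -1.38, and 0 to 1 genes near Gt(ROSA)26Sor were called there. Otherwise, 427 values under other settings and 1546 with 1 library left out stayed the same. They include counts of genes, which have no direction and stayed equal or nearly so. The fold changes and correlations among them kept their direction. Those with a test also kept their side of the threshold, and the KO differences of Pvt1 and Gt(ROSA)26Sor, which are given without a test, moved by less than 1 SD between libraries. By Spearman's rho, 5 of 5 genes most like Pvt1 and 4 of 5 most like Gt(ROSA)26Sor stayed among the first 5, in another order.

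Libraries of different tissues share numbers. Their deviations correlated above 0.1 for every pair only between WT liver and muscle, and by -0.142 to 0.38 over the other tissue pairs. With the number as a replicate block (correlation 0.0566) the tissue differences in WT mice kept their calls: Pvt1 in WT adipose tissue minus liver was 0.53 (limma adjusted p = 0.0371). Low reads limit Pvt1 most in WT liver of 5 months, with 8 to 26 reads per library. Counts over all genes moved with the tool: KO and WT adipose tissue of 5 months differed in 15 genes with limma, 9 with edgeR, 304 with DESeq2 and 534 without the Xist libraries. Liver at 5 months gave 9, 6, 47 and 1, liver at 20 months 3, 1, 18 and 6, and muscle at 20 months 4, 6, 42 and 2 in that order. Ageing calls were 929 in WT and 386 in KO liver with limma, 1459 and 778 with DESeq2, and 414 and 570 without the Xist libraries.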
